A study of Homo sapiens with 5 samples.

Results

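The transcripts described here encode 10 enzymes of glycolysis, chosen by name: HK2, GPI, PFKL, PFKP, ALDOA, TPI1, GAPDH, PGK1, ENO1 and PKM. All 10 were found among the 56632 genes of each table, and all 10 were among the 11764 genes analysed, those whose FPKM averaged at least 1 across the tables. FPKM counts fragments relative to transcript length and to the mapped fragments of the library. The study used RNA immunoprecipitation and sequencing (RIPseq) in MCF10A, an established non-tumorigenic line of human breast epithelial cells, to ask which mRNAs are bound by CBFB and by hnRNPK. CBFB is the partner subunit of the RUNX transcription factors, while hnRNPK binds RNA and favours C-rich sequence.

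The 5 libraries came from MCF10A cells of 2 kinds. MCF10A cells expressing FLAG-CBFB gave 1 input and 1 RIP with a FLAG antibody. Parental MCF10A gave 1 input and 2 hnRNPK RIPs made with an antibody to the endogenous protein. The study's methods describe, for its FLAG pulldowns of proteins, CBFB knockout MCF10A cells transduced with lentivirus for FLAG-tagged CBFB. The labels do not say whether the RIP cells are that line, or whether they are 1 clone. No mock immunoprecipitation was analysed here. The labels do not say that the 2 hnRNPK RIPs came from separate cultures, so the spread between them may be technical. CBFB values and input values rest on 1 library each and have no replicate check.

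Glycolysis splits glucose into pyruvate in the cytosol. Hexokinase, the isomerase GPI, phosphofructokinase and aldolase prepare and cut the sugar, and TPI1 joins the products into 1 triose pool. GAPDH, PGK1, enolase and pyruvate kinase then carry the triose to pyruvate and make ATP. PKM encodes the pyruvate kinase isoforms M1 and M2, which come from alternative splicing of the same gene. GAPDH mRNA is widely used as a reference transcript and served the study as a control in its RIP assays.

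The libraries held 69786576 to 106855647 expected counts. Mitochondrial genes took 4.27% (FLAG-CBFB cells) and 11.2% (parental) of the input counts. Their share was 62.2% with FLAG-CBFB and 84.5% and 86.6% with hnRNPK. Of all genes, 94.1% had a lower FPKM in both hnRNPK RIPs than in the parental input. All 7 markers of basal breast epithelium exceeded 1 FPKM in both inputs. The endothelial and leukocyte markers measured stayed at or below 0.01 FPKM in the inputs. Of the 4 markers of hormone receptor positive epithelium, PGR was at 0 in every library and ESR1 was at 0.71 and 0.67 FPKM in the inputs, while GATA3 (6.17 and 6.40) and FOXA1 (3.66 and 6.01) exceeded 1 FPKM in both. The highest fibroblast marker value was 1.77 FPKM, for COL1A1 in the parental input.

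PKM sequences are shown first, because PKM was the only one of the 10 mRNAs whose FPKM was higher in a RIP than in its input. PKM (ENSG00000067225) lies at chr15:72199029-72231822 on the minus strand, and GAPDH (ENSG00000111640) at chr12:6533927-6538374 on the plus strand (GENCODE 29, GRCh38). No other annotated gene overlaps PKM. The stretches below are the 30 nt with the most C in the sense strand of 3 of the mRNAs, with runs of at least 4 C in capitals. All 3 stretches lie in the 3′ UTR. Of the 10 mRNAs, PKM and PFKL hold the most C in such a 30 nt stretch, and GAPDH is the reference.
PKM: cctccagCCCCtgtcccaCCCCCttCCCCC
PFKL: ccatgcccacgCCCCtCCCCagCCCCCacc
GAPDH: CCCCCaccacactgaatctCCCCtcctcac

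The study also measured PKM by real-time PCR after RIP, so its values here are of a transcript the study selected. The study counted PKM among the mRNAs bound by CBFB and hnRNPK, but reported it as an exception in its later assays. CBFB deletion moved the other bound mRNAs tested towards the ribosome-free fraction, and their proteins fell, but not those of PKM. The study's PKM primers match positions 566 to 585 and 621 to 640 of the transcript PKM-203, inside the coding sequence, and span 75 nt. Both primers were found in 8 of the 14 annotated coding transcripts of PKM.
PKM forward: ggaagtgggcagcaagatct
PKM reverse: aggaagtcggcacctttctg

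In both inputs GAPDH was the most abundant of the 10 mRNAs and HK2 the least. GAPDH, the triose dehydrogenase, stood at 3914 FPKM in the FLAG-CBFB cell input and 4839 in the parental input. ALDOA and ENO1 followed, and they differed by only 1.01-fold in the first input, where ALDOA led, and by 1.30-fold in the second, where ENO1 led. PKM was the next in both, at 845 and 958 FPKM. TPI1 and PGK1 also changed places between the inputs. GPI, PFKP, PFKL and HK2 kept the last 4 places in this order in all 5 libraries. Centred differences between the inputs ranged from -0.39 to 0.35 (log2) over the 10 mRNAs, and none passed 2-fold, against 9.57% of the analysed genes that passed 2-fold either way.

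The order at the top changed in the RIPs. GAPDH remained ahead of PKM in the FLAG-CBFB RIP, but by 1.20-fold instead of 4.63-fold. In the hnRNPK RIPs PKM led, with an FPKM 3.58-fold that of GAPDH in repeat 1 and 6.37-fold in repeat 2. GAPDH, ENO1, ALDOA, TPI1 and PGK1 followed in both repeats in that order.

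**Figure D1:**
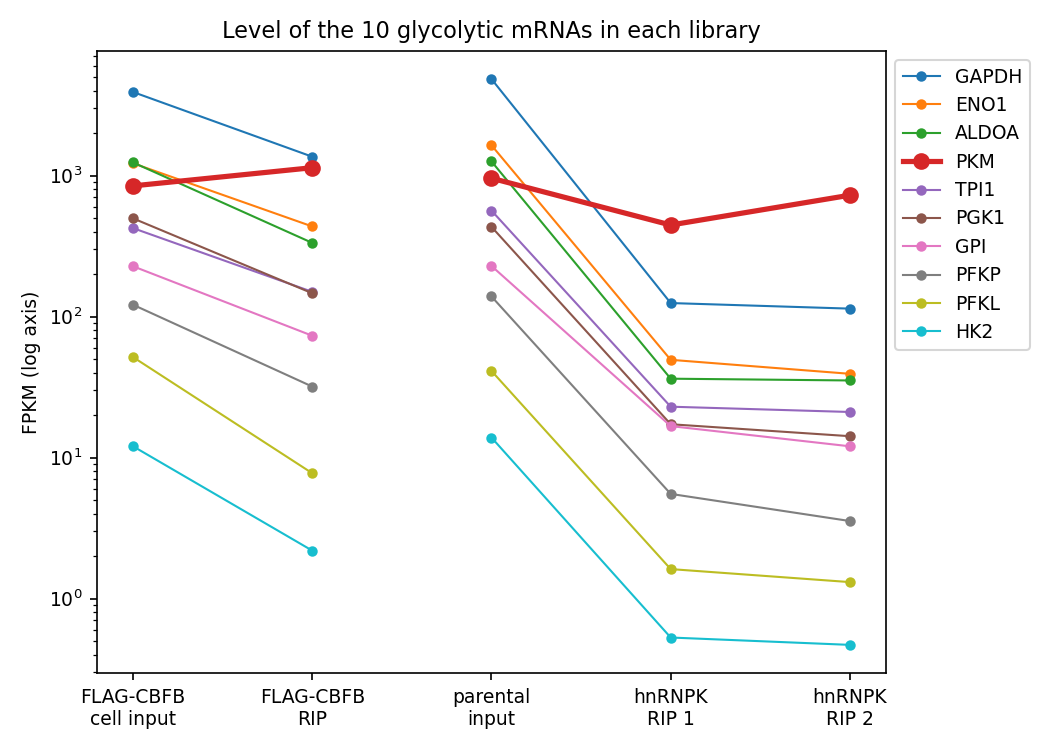
FPKM (log axis) of each of the 10 glycolytic mRNAs in the 5 libraries, each point 1 library, with lines joining an input to its own RIP. PKM, drawn thick, stays between 446 and 1138 FPKM in all libraries while the other 9 lines drop from input to RIP.

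PKM catalyses the last step of the pathway. Its FPKM was 845 in the FLAG-CBFB cell input and 1138 in the FLAG-CBFB RIP, 1.35-fold higher. In parental cells it was 958 in the input, 446 in hnRNPK RIP 1 and 726 in hnRNPK RIP 2. The RIP values of hnRNPK were thus below the input, by 2.15-fold and 1.32-fold, in libraries where the other 9 mRNAs were at least 13.7-fold below their input. Only 7% of the analysed genes had a higher FPKM in the FLAG-CBFB RIP than in its input.

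GAPDH gave a contrasting profile. It stood at 3914 FPKM in the FLAG-CBFB cell input and at 1361 in the RIP. In parental cells it stood at 4839 FPKM, against 124.8 and 113.9 with hnRNPK. Its 2 hnRNPK values lay close together, whereas those of PKM differed by 1.63-fold with repeat 2 higher. Each of the other 9 mRNAs was higher in repeat 1, by 1.03- to 1.56-fold.

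ENO1, the enolase, stood at 1223 FPKM in the FLAG-CBFB cell input and 436 in its RIP, and in parental cells at 1641 before RIP and 49.4 and 39.3 after hnRNPK RIP. ALDOA, the aldolase, stood at 1239 and 333, and at 1261, 36.3 and 35.2. In both mRNAs every RIP lay below its input, and the drop was steeper with hnRNPK.

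TPI1, the triose phosphate isomerase, stood at 424 and 149.8 FPKM in the FLAG-CBFB cell input and RIP, and at 565, 23.0 and 21.1 in the parental input and the 2 hnRNPK RIPs. PGK1, the first ATP-producing kinase of the pathway, stood at 497 and 146.4, and at 433, 17.2 and 14.2. Their levels were close in the FLAG-CBFB RIP, and TPI1 was 1.33-fold and 1.48-fold above PGK1 in the hnRNPK RIPs.

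GPI, the glucose-6-phosphate isomerase, stood at 227 and 73.2 FPKM in the FLAG-CBFB cell input and RIP, and at 229, 16.7 and 12.0 in the parental input and the 2 hnRNPK RIPs. PFKP, the platelet-type phosphofructokinase, stood at 121 and 31.9, and at 139, 5.53 and 3.55. These mRNAs had the widest gaps between hnRNPK repeats among the 9, and their highest RIP value was still below the input.

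PFKL, the liver-type phosphofructokinase, stood at 51.6 and 7.75 FPKM in the FLAG-CBFB cell input and RIP, and at 41.2, 1.62 and 1.31 in the parental input and the 2 hnRNPK RIPs. HK2, the inducible hexokinase, stood at 12.0 and 2.19, and at 13.9, 0.53 and 0.47. The hnRNPK values of HK2 rested on 295 and 223 expected counts and were the lowest of the 10. As deposited, the FPKM of the 9 mRNAs without PKM was 2.80- to 6.66-fold below the input in the FLAG-CBFB RIP, 13.7- to 38.8-fold in hnRNPK RIP 1 and 19.0- to 42.5-fold in repeat 2.

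Because FPKM depends on what else is in a library, enrichment was taken as log2(FPKM + 1) of a RIP minus that of its own input, centred so that the mean over the analysed genes is 0. Fold changes on this scale are understated for low levels, such as those of HK2 and PFKL in the RIPs. In FLAG-CBFB RIP, PKM had a centred enrichment of 1.77, higher than 94.8% of the analysed genes. The other 9 ranged from -1.25 for PFKL to -0.15 for ENO1 and TPI1. GAPDH, at -0.18, was near the middle of all genes (50.6th percentile), and HK2 (-0.69), PFKP (-0.56), ALDOA (-0.55), PGK1 (-0.42) and GPI (-0.28) lay below it. PFKL was at the 1.17th percentile. In all, 9 of the 10 were below 0, where 64.9% of all genes were.

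The study set its 4-fold threshold on adjusted FPKM and over another set of transcripts, so its calls need not match those on the centred scale. On the centred scale none of the 10 passed 4-fold in FLAG-CBFB RIP, against a background of 4.37% above and 0.0935% below. At 2-fold, PKM lay above (background 9.27%) and PFKL below (background 3.81%). The median of the 10 was -0.35 and that of all genes -0.19. Relative to all genes, the sign of this small difference changed with the scaling: with expected counts scaled by trimmed means (TMM) the medians were 0.12 and -0.01. With 1 library in each arm no test was possible, and 95% counting errors, which were at most 0.09, cover the sampling of reads only.

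In hnRNPK RIP, PKM had centred enrichments of 1.51 and 2.28 in the repeats, a mean of 1.89 ± 0.55 (SD, n = 2). The mean was higher than 91.0% of all genes. It missed the 4-fold threshold (background 8.2%), which repeat 2 alone passed. GAPDH, at -2.69 ± 0.04 (SD, n = 2), was at the 1.11th percentile. ENO1 (-2.54 ± 0.18), ALDOA (-2.46 ± 0.02), PGK1 (-2.06 ± 0.14) and PFKP (-2.04 ± 0.32) also lay below -2. TPI1 was at -1.98 ± 0.03, PFKL at -1.46 ± 0.08, GPI at -1.27 ± 0.26 and HK2 at -0.67 ± 0.01. For HK2 and PFKL, at 0.47 to 1.62 FPKM in these RIPs, the pseudocount of 1 shrinks both the fall and the SD. By FPKM alone HK2 fell 26.2-fold and 29.5-fold, and TPI1 24.6-fold and 26.8-fold. As in the FLAG-CBFB RIP, 9 of the 10 were below 0, against 53.2% of all genes.

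Thus 5 of the 10 were more than 4-fold below the average gene in hnRNPK RIP, where 6.24% of all genes were, and 8 of 10 were more than 2-fold below, where 25.3% were. With a pseudocount of 1, genes at low input levels could not reach these thresholds even at 0 FPKM in the RIPs. HK2, at 13.9 FPKM in the parental input, could not reach the 4-fold one. Both background shares include such genes, so these contrasts depend in part on expression level. The median of the 10 was -2.01, that of all genes -0.11. Both counts depended on the scaling. None of the 10 was more than 4-fold below with a pseudocount of 0.1, without mitochondrial genes, with TMM or with DESeq2 size factors, and 4 (TMM) and 3 (DESeq2 size factors) were more than 2-fold below, against 19.8% and 13.9% of all genes. The median of the 10 minus that of all genes was -1.90 here and -0.70 with TMM. The place of PKM against the 4-fold threshold depended on the scaling. With TMM its enrichment was 2.27 in FLAG-CBFB RIP and 3.09 in hnRNPK RIP, and with a pseudocount of 0.1 it was 1.99 and 2.69. PKM was the highest of the 10 in both RIPs under every scaling tried.

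**Figure D2:**
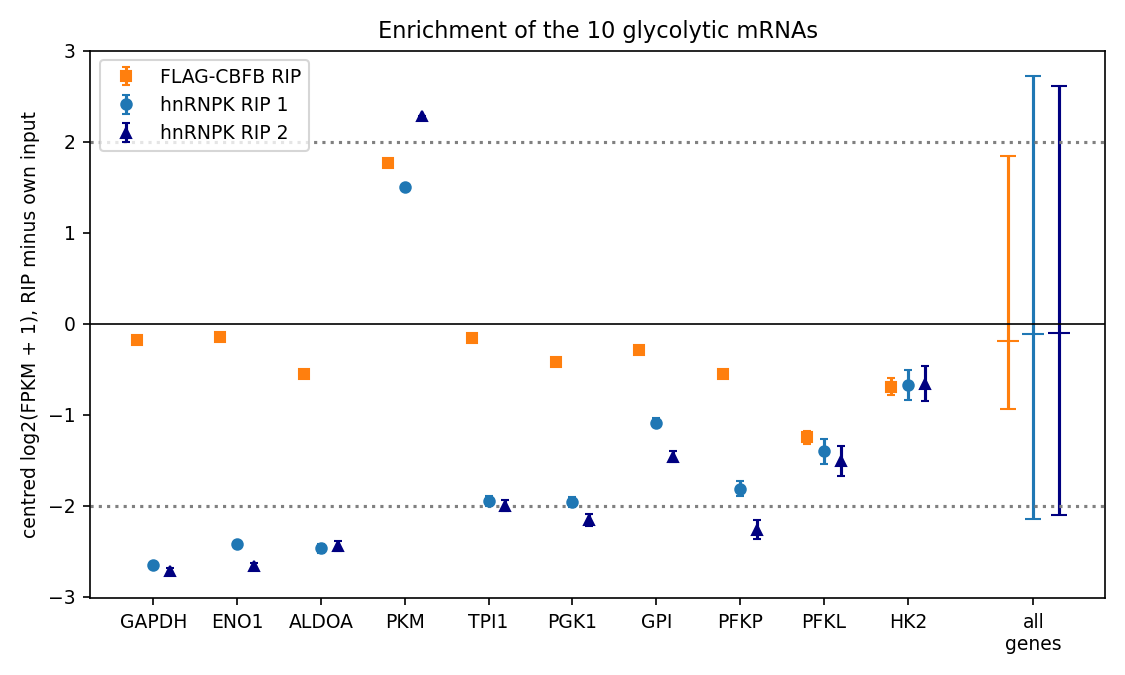
Centred log2 enrichment (vertical axis) of the 10 mRNAs in the FLAG-CBFB RIP and the 2 hnRNPK RIPs, with 95% counting errors as bars, dotted lines at ±2 (4-fold), and at the right the median and the 5th to 95th percentile of the 11764 analysed genes. PKM lies above 0 in all 3 RIPs, and the other 9 below 0 in all 3.

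The hnRNPK RIPs were also compared with the parental input by edgeR's quasi-likelihood test on the expected counts, with p-values adjusted by Benjamini-Hochberg over all 11764 genes. This comparison of 2 libraries with 1 has 1 residual degree of freedom and takes its spread from the RIP repeats alone. Its TMM scale sets abundant mRNAs higher than the centred FPKM scale does. PKM rose, with a log2 fold change of 3.29 (SE 0.42) and an adjusted p of 4.7e-06 by edgeR. RUNX1, the reference target of the study, rose by 4.85 (SE 0.41), with an edgeR adjusted p of 4.6e-08.

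GAPDH fell by 1.39 on the log2 scale (SE 0.29, edgeR adjusted p = 0.00089). ENO1 fell by 1.26 (edgeR adjusted p = 0.0024), ALDOA by 1.16 (0.0053) and PFKP by 0.95 (0.030). The call of PFKP was lost with DESeq2 (log2 fold change -0.88, adjusted p = 0.077). With 1 repeat left out, PFKP had a plain log2 ratio of TMM-scaled counts, 1 RIP against 1 input. This was -0.74 without repeat 2 and -1.19 without repeat 1. The 5 other mRNAs did not pass. Their edgeR log2 fold changes were -0.85 for HK2 (adjusted p = 0.0504), -0.80 for PFKL (0.066), -0.77 for TPI1 (0.056), -0.41 for PGK1 (0.32) and -0.10 for GPI (0.83). In all, 4 of the 10 fell, against 14.3% of all genes, and 1 rose, against 24.6%. With library sizes that leave out mitochondrial counts, 9 of the 10 fell and PKM alone rose. That scaling shifted the median of all genes from -0.10 to -1.45 and the calls over all genes from 2891 up and 1677 down to 1605 up and 7473 down.

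The difference between PKM and GAPDH within a library does not depend on the centring. In the FLAG-CBFB RIP, PKM exceeded GAPDH by 1.95 (log2, counting error 0.01), or 3.87-fold, after division by the input. In the hnRNPK RIPs the difference was 4.17 and 5.00, or 17.9-fold and 31.9-fold, with a mean of 4.58 ± 0.59 (SD, n = 2). Between the inputs it was 0.13. The hnRNPK differences were far larger than the spread between the repeats, while the FLAG-CBFB difference has no repeat. Against each of the other mRNAs the difference was 1.91 (ENO1) to 3.02 (PFKL) in the FLAG-CBFB RIP. In the hnRNPK RIPs its mean was 2.56 (HK2) to 4.58 (GAPDH). For HK2, at 0.53 and 0.47 FPKM in these RIPs, the pseudocount of 1 shrinks the difference. By FPKM alone, PKM fell 2.15-fold and 1.32-fold and HK2 26.2-fold and 29.5-fold. GPI fell the least of the mRNAs other than PKM, by 13.7-fold and 19.0-fold, so by FPKM it was the nearest to PKM.

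The expected counts give the same picture as a make-up of the pathway. PKM had 186018 expected counts in the FLAG-CBFB cell input, 220516 in the FLAG-CBFB RIP, 142337 in the parental input, and, with hnRNPK, 96981 in repeat 1 and 140225 in repeat 2. GAPDH had 467165, 134230, 374556, 14159 and 11126. Of the counts of the 10 mRNAs, PKM thus made up 15.6% in FLAG-CBFB cells (15.6 to 15.7%, 95% Wilson) and 15.2% in parental cells (15.1 to 15.3%) before RIP. After RIP it made up 44.0% with FLAG-CBFB (43.9 to 44.2%), and 72.5% (72.3 to 72.8%) and 83.6% (83.4 to 83.8%) with hnRNPK. These intervals cover counting error only, since reads carried no molecular identifiers used here.

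Mitochondrial reads did not enter the next shares. Of non-mitochondrial counts, the 9 mRNAs without PKM took 0.981% in the FLAG-CBFB cell input and 0.816% in its RIP. In parental cells they took 1.28% in the input and 0.230% and 0.226% in the hnRNPK RIPs, so the repeats were almost equal. PKM took 0.182% and 0.642% in the FLAG-CBFB cell input and RIP. In parental cells PKM took 0.230% in the input and 0.608% and 1.15% in the hnRNPK RIPs, above the input in both.

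**Figure D3:**
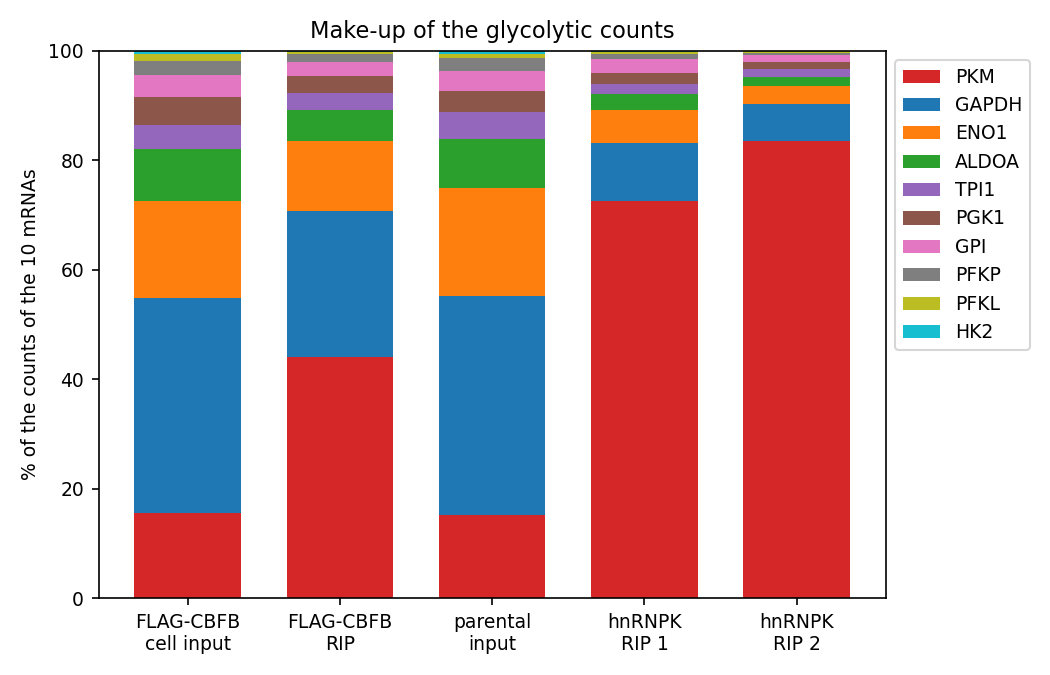
Percent of the summed expected counts of the 10 mRNAs (vertical axis) that each mRNA made up in each library, as stacked bars. PKM goes from 15.6% to 44.0% between the FLAG-CBFB cell input and RIP, and from 15.2% to 72.5% and 83.6% between the parental input and the 2 hnRNPK RIPs.

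Reads shared with near-identical copies had little weight. The tables held 82 annotated pseudogenes of the 10 mRNAs, 64 of them of GAPDH, and their summed counts were at most 0.215% of those of the parent mRNA in any library. PGK1 overlaps ATP7A on the same strand, and ATP7A had 75 to 1404 counts. ALDOA overlaps another annotated coding gene on the same strand, which was not measured here.

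The C content of the 10 mRNAs was read from the annotated coding transcript nearest in length to the deposited mean length. CCCC was searched on the sense strand only, with matches that do not overlap, and 96.4% of 10507 transcripts of analysed genes held it. The median was 3.48 matches per kilobase. PKM-203 had 6.58 per kilobase (76th percentile) and GAPDH-202 had 9.48 (90th percentile), while PGK1-201 had 2.05. The C-richest 30 nt, shown above, held 21 C in PKM and in PFKL and 18 in GAPDH, where the median transcript held 17. Across the genes of these transcripts, Spearman's rho between matches per kilobase and enrichment was 0.24 for hnRNPK and 0.22 for FLAG-CBFB. Between transcript length and enrichment it was 0.37 for hnRNPK and -0.25 for FLAG-CBFB. These are descriptions, in which the genes share libraries and base composition. Transcript lengths in release 29 can differ from those the authors used, as for PGK1-201 (4887 nt against a deposited mean of 1348 nt in the parental input) and ALDOA-205 (906 nt against 1102 nt).

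**Figure D4:**
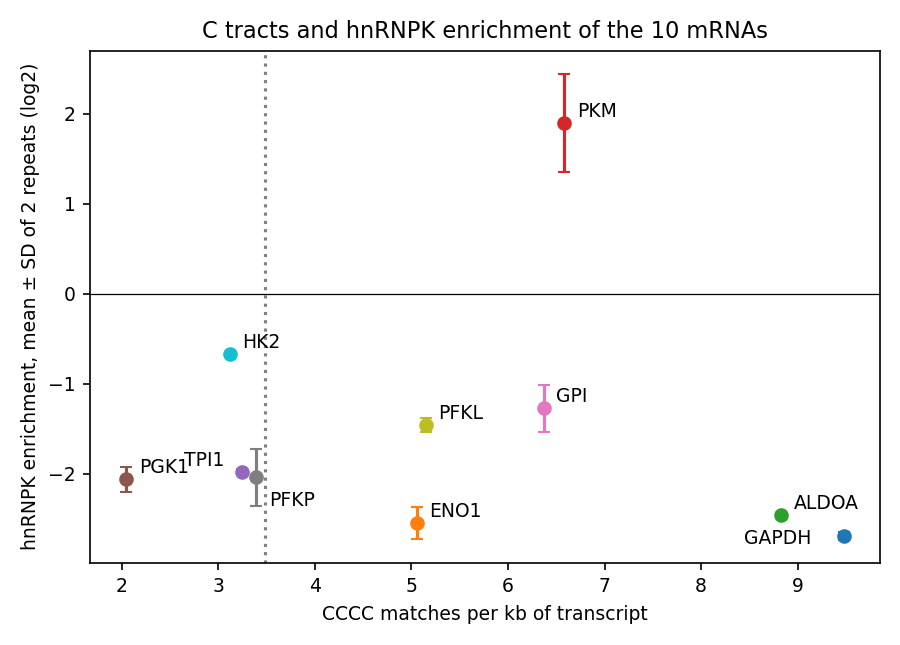
CCCC matches per kilobase of transcript (horizontal axis, dotted line at the median of 3.48 over all transcripts) against the mean hnRNPK enrichment (vertical axis, log2) of the 10 mRNAs, with the SD of the 2 repeats as bars. GAPDH and ALDOA have more CCCC per kilobase than PKM and lie at -2.69 and -2.46, while PKM lies at 1.89.

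The rest of glucose metabolism was described by 67 further genes in 5 lists, of which 51 were analysed and the other 16 had low levels, at most 1.75 FPKM in any library. In FLAG-CBFB RIP 1 of the 51 was above 4-fold and none below, near the background of 4.37% and 0.0935% of all genes. In hnRNPK RIP 2 were above and 8 below, against 8.2% and 6.24% of all genes, and the median of the 51 was -1.35. As above, the 6.24% is a share of genes that include some too low in the input to pass. With a pseudocount of 0.1 only 2 were below. By edgeR 6 of the 51 rose and 10 fell, against 24.6% and 14.3% of all genes, and the edgeR counts of each list below are read against the same shares.

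G6PC3, a ubiquitous glucose-6-phosphatase of the endoplasmic reticulum, had the highest enrichment of these genes in both RIPs. It went from 35.9 FPKM in the FLAG-CBFB cell input to 652 in the RIP, and from 74.2 in the parental input to 295 and 268 in the hnRNPK RIPs. Its centred enrichment was 5.48 in FLAG-CBFB RIP and 4.55 ± 0.05 (SD, n = 2) in hnRNPK RIP. It rose by edgeR with a log2 fold change of 5.87 (adjusted p = 9.3e-09). PCK2, the mitochondrial PEP carboxykinase and the only other gluconeogenesis gene analysed, stood at 0.36 and -0.48 ± 0.46, and 4 of the 6 listed were too low to analyse.

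CS, citrate synthase, was the gene of the citrate cycle and pyruvate dehydrogenase list (21 of 21 analysed) with the highest enrichment. It stood at 135.9 and 123 FPKM in the FLAG-CBFB cell input and RIP, and at 110.8, 228 and 188 in the parental input and the 2 hnRNPK RIPs. The centred enrichment was 1.20 in FLAG-CBFB RIP and 3.54 ± 0.14 (SD, n = 2) in hnRNPK RIP, with an edgeR log2 fold change of 4.92 (adjusted p = 2.4e-08). IDH3A, a subunit of isocitrate dehydrogenase, also rose by edgeR, so that 2 of the 21 rose. The 5 that fell were PDHB, FH, SDHA, SDHB and SUCLG1, a subunit of succinyl-CoA ligase. Below -2 in hnRNPK RIP were PDHA1 (-2.64) and PDHB (-2.12), of pyruvate dehydrogenase, FH (-2.60), the fumarase, and SDHA (-2.11) and SDHB (-2.08), of succinate dehydrogenase. The lowest of the list in FLAG-CBFB RIP was PC, pyruvate carboxylase, at -1.19. PDHA1 did not pass by edgeR (adjusted p = 0.0505). The list median was -0.35 in FLAG-CBFB RIP and -1.46 in hnRNPK RIP.

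Of the 16 other glycolytic isoenzymes, 6 were analysed. By edgeR none rose and 1 of the 6, BPGM, fell, a share near that of all genes. HK1, the constitutive hexokinase, was the lowest in both RIPs, at -1.04 and -2.01 ± 0.06 (SD, n = 2). ENO3, the muscle enolase, was the highest, at 0.61 and 1.04 ± 0.04, from levels of at most 5.43 FPKM. The list medians were -0.25 and -0.95.

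In the pentose phosphate list (7 of 7 analysed), the transketolase TKT was the lowest in hnRNPK RIP, at -2.52 ± 0.38 (SD, n = 2), and the epimerase RPE in FLAG-CBFB RIP, at -0.62. By edgeR 3 of the 7 fell. The list medians were -0.39 and -1.70.

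Among genes of glucose and lactate transport, lactate dehydrogenase and regulation (15 of 17 analysed), LDHA was the lowest in hnRNPK RIP, at -2.13 ± 0.09 (SD, n = 2), and fell by edgeR (log2 fold change -0.97, adjusted p = 0.015). PDK2, a kinase that inhibits pyruvate dehydrogenase, was the highest at 1.61 ± 0.63, and MYC, a transcription factor, stood at -0.36 ± 0.32. Both rose by edgeR, with log2 fold changes of 3.10 (adjusted p = 1.2e-05) and 0.92 (adjusted p = 0.037). In FLAG-CBFB RIP the range was from -0.97 for SLC2A1, the glucose transporter GLUT1, and for HIF1A, the hypoxia factor, to 0.46 for PDK3. PDK3 was low, at 2.27 FPKM in the input and 0.78 in the RIP. By the plain ratio of RIP to input FPKM, PDK2 was higher than PDK3 (0.444 against 0.344). The list medians were -0.30 and -0.36.

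**Figure D5:**
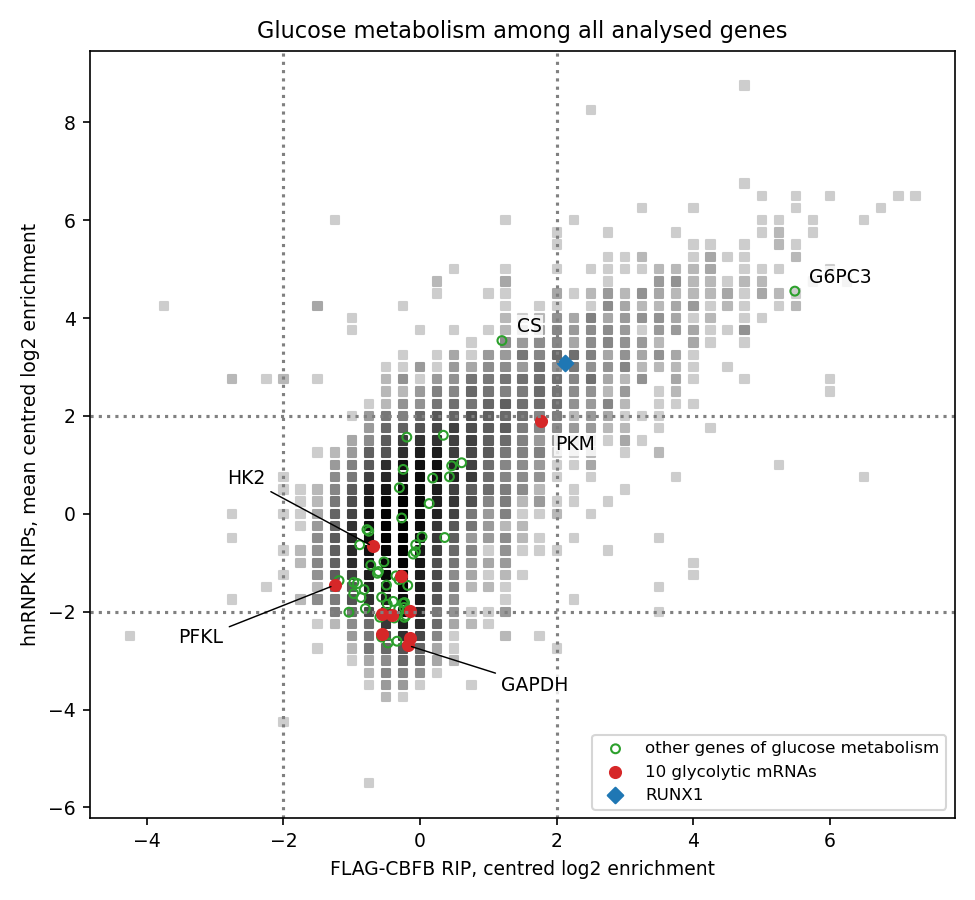
Centred log2 enrichment in FLAG-CBFB RIP (horizontal axis) against the mean of the hnRNPK RIPs (vertical axis) for the 10 glycolytic mRNAs (red), the 51 other genes of glucose metabolism (green), RUNX1 (blue) and all analysed genes binned by 0.25 (grey, darker for more genes), with dotted lines at ±2. Among the 51, G6PC3 (5.48, 4.55) is the highest on both axes and CS (1.20, 3.54) the second on both, PKM is at 1.77 and 1.89, and the other 9 glycolytic mRNAs lie below 0 on both axes.

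Among 4654 protein-coding genes averaging at least 10 FPKM, those with the 3 RIP enrichments nearest to PKM by Euclidean distance were SGTA (0.29), MROH6 (0.33), SPEN (0.37), SRPRA (0.39) and ARHGDIB (0.39). Those nearest to GAPDH were MYL12B (0.07), DDT (0.09), UQCR10 (0.09), RPL24 (0.10) and ATP5PO (0.11). Within a distance of 0.5 there were 11 genes for PKM and 162 for GAPDH.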

How the data were processed

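The 5 libraries were grouped by their titles. Per the labels, RNA was taken up in Trizol and libraries were made with a TruSeq mRNA kit. The submitters' processing notes name Trimmomatic, STAR, RSEM and hg19, while versions and the annotation release are not given in the sources used here. The authors deposited, per gene, RSEM expected counts, which need not be whole, TPM (not used for results) and FPKM, scaled to transcript length and to mapped fragments. Per the file headers, transcript lengths are also given, as other values. A hand-written symbol column was not used.

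Of 56632 gene identifiers, 49995 were named by a table of gene names. Coordinates and transcripts are those of GENCODE 29 (GRCh38), since the tables hold none. Enrichment is the difference of log2(FPKM + 1) between a RIP and its input, centred on the mean over the 11764 genes whose FPKM averaged at least 1. A deposited expected count was rounded before edgeR 4.0.16 (quasi-likelihood, TMM) and DESeq2 1.42.0. The edgeR test was tested on simulated data and recovered 162 of 200 genes changed 4-fold in the hnRNPK RIP comparison over 11764 genes, with 3 false calls. In that simulation as many genes rose as fell, and far fewer changed than were called in the data. It therefore cannot show errors that come from the scaling. FLAG-CBFB RIP, 1 library against 1, was not tested.

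The members and lists were chosen with earlier results of these data known. Named were all 10 members, RUNX1, other listed genes past 4-fold and the highest and lowest of each list, and the 5 genes nearest to PKM and to GAPDH. IDH3A, SUCLG1, BPGM and MYC were named after their values were seen. One gene that the rule names is not reported here. With 69786576 to 106855647 counts in a library, a floor of 3 counts is 2.8e-06 to 4.3e-06 percent of it, for counting error only. Alternatives were other pseudocounts, centrings, filters and scalings, the other input, and leaving out each repeat. Calculations used Python 3.11.15 and R 4.3.3.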

Additional observations from a re-analysis of the deposited data

Results flagged for a closer look

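The deposited mean transcript length of PGK1, a column that entered no comparison, was longer in the hnRNPK RIPs than in the parental input. It was 1348 nt in the parental input, 1657 nt in hnRNPK RIP 1 (ratio 1.229) and 1843 nt in hnRNPK RIP 2 (ratio 1.367). The FLAG-CBFB cell input had 1313 nt, a ratio of 0.974 to the parental input. PGK1 overlaps ATP7A on the same strand, which had 141 and 75 expected counts in these RIPs against 2647 and 2149 for PGK1, and the part of this overlap was not tested.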

How the results depend on the processing

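In the FLAG-CBFB RIP the median of the 10 mRNAs was -0.35. It was -0.13 with a pseudocount of 0.1, -1.69 without centring, -0.16 with median centring, -1.37 centred over all genes and -0.27 with a mean FPKM of at least 5. It was -0.11 without mitochondrial genes, -2.61 at an equal arithmetic mean, 0.12 with TMM, 0.17 with DESeq2 size factors, -0.54 against the other input and -0.42 without PKM. In the hnRNPK RIP the median of -2.01 became -1.31 with a pseudocount of 0.1, -4.65 without centring, -4.04 centred over all genes and -1.55 with a mean FPKM of at least 5. It became -1.17 without mitochondrial genes, -5.46 at an equal arithmetic mean, -0.95 with TMM, -0.78 with DESeq2 size factors and -1.84 against the other input. Its gap to the median of all genes was -1.90 as reported, without centring and centred over all genes, -0.90 with a pseudocount of 0.1, -0.75 without mitochondrial genes and -0.70 with TMM or DESeq2 size factors. The median between the inputs was -0.16, and -0.19 without centring and -0.23 with TMM. PKM minus GAPDH in FLAG-CBFB RIP was 2.04 with TMM, 2.08 against the other input and 2.19 with the median of the other 9 in place of GAPDH, which gave 3.93 for hnRNPK. That setting and the one without PKM were chosen after seeing the data. Leaving out 1 hnRNPK repeat gave -2.08 to -1.88 for the median and 4.17 to 5.00 for PKM minus GAPDH.

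By edgeR, 4 of the 10 fell, and 9 did with library sizes without mitochondrial genes and 8 with no filter on low counts. DESeq2 called 3 down, without PFKP, and PKM up. Over all genes edgeR called 1677 down, and DESeq2 846. At 2-fold in place of 4-fold, 2 of the 51 other genes were above and 2 below in FLAG-CBFB RIP, and 5 above and 30 below in hnRNPK RIP. With a pseudocount of 0.1, 2 were below 4-fold in hnRNPK RIP. The cause was not tested. No paired analysis was possible because each input and the FLAG-CBFB RIP is 1 library, so no groups share 2 replicate numbers.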
